A study of Mus musculus with 64 samples.

Results

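Left ventricles (LV) were compared between 2 groups of mice that lacked Pkp2 in their cardiomyocytes and had received an adeno-associated virus vector with a replacement copy. AAV_1E14_2.5wk animals had received a single dose of 1E14 vg/kg of AAV9:mPkp2 (vector genomes per kg of body weight) 2.5 weeks after tamoxifen, and AAV_3E13 animals a single dose of 3E13 vg/kg. By label the AAV_3E13 dose came 1 week before tamoxifen, a timing on which the sources used here are not of one voice (before or after). Libraries were taken by ventricle and by the group named in the sample titles, which gave 6 and 8 libraries, or 14 of the 64 in the series. The question was how LV expression stood 51 weeks after tamoxifen when a high dose had come late and a low dose early. Animals sampled then had lived to that week, and the effect of earlier deaths on the groups was not tested. Dose and dosing time changed together between these groups and cannot be told apart from them.

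All 14 animals were C57BL6 mice with floxed Pkp2 alleles and the tamoxifen-inducible αMyHC-Cre-ER recombinase, whose promoter is active in cardiomyocytes, and all had received tamoxifen. The vector carried mouse Pkp2 under a cardiac troponin T promoter and was injected retro-orbitally, so both groups held the deletion and the vector and neither was an untreated control. AAV_1E14 animals (early, 1E14 vg/kg, n = 5) and WT animals (Cre-negative floxed littermates given HBSS vehicle, n = 9) of the same series are given beside them where they place a level. Each animal gave 1 LV and 1 RV (right ventricle) library by label. Replicates were separate animals.

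Plakophilin-2 is an armadillo protein of the desmosome, the junction at the intercalated disc that ties desmoplakin and the desmin filaments of neighbouring cardiomyocytes together. Loss of desmosomal proteins is the best known cause of arrhythmogenic right ventricular cardiomyopathy, in which muscle is lost and replaced by fibrous and fatty tissue. The disc also carries the gap junctions that couple cells electrically, and the sarcomere, the calcium store and the mitochondria lie just behind it.

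Between 7.18 M and 10.2 M counts per library were used in AAV_1E14_2.5wk LV and between 6.52 M and 8.77 M in AAV_3E13 LV (M, 1e+06 counts), after the mitochondrially encoded genes had been left out. Those genes took 29.3% ± 7.88 of the counts in AAV_1E14_2.5wk LV and 29.9% ± 6.03 in AAV_3E13 LV (SD, n = 6 and 8, exact two-sided permutation p = 0.891). On the first principal component of the 14 libraries AAV_1E14_2.5wk lay between -45.6 and -9.9 and AAV_3E13 between -7.5 and 46.7, with no overlap. 2 late libraries stood apart for atrial transcripts. The summed level of 13 atrial markers was 2204 CPM in AAV_1E14_2.5wk_LV_5810 and 1647 CPM in AAV_1E14_2.5wk_LV_5755, and at most 1242 CPM in the other 12 libraries. Without Nppa the 12 remaining markers summed to 971 CPM in AAV_1E14_2.5wk_LV_5810 and 1151 CPM in AAV_1E14_2.5wk_LV_5755, against at most 904 CPM elsewhere. AAV_1E14_2.5wk_LV_5755 had 31.9 CPM of Myl4, 14.7 of Myl7 and 6.43 of Sln, where no other library exceeded 9.16, 3.66 and 1.13 CPM (CPM, counts per 1e+06 counts used).

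Pkp2 itself (GRCm39 chr16:16031144-16090586) was higher in every AAV_1E14_2.5wk LV library than in any AAV_3E13 one. Its level was 3344, 1005, 2705, 626, 4798 and 1442 CPM in the 6 AAV_1E14_2.5wk libraries (2319.9 ± 1594, SD), against 267, 331, 351, 332, 244, 305, 221 and 351 CPM in the 8 AAV_3E13 libraries (300.3 ± 50.1, SD). The late group thus spread far more widely than the low-dose group. The log2 fold change was 2.96 (SE 0.35, adjusted p = 0.000751, edgeR quasi-likelihood test with Benjamini-Hochberg adjustment). By the exact two-sided permutation test the mean log2 CPM differed by 2.64 (p = 0.000333, the smallest that 3003 regroupings can give). The median was 1503 CPM in AAV_1E14 LV and 195 CPM in WT LV. Reads of the vector and of the animals' own locus are not separated in these counts.

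Over all genes, 2099 of the 13463 tested differed between AAV_1E14_2.5wk and AAV_3E13 LV at an adjusted p below 0.05 (15.6%). Of these, 1407 were higher (10.5%) and 692 lower (5.14%) in AAV_1E14_2.5wk. Most changes were modest. The median size among called genes was 0.518 on the log2 scale, and only 21 called genes rose and 49 fell by more than 2-fold. The groups did not overlap at 371 genes that were higher (2.76% of those tested) and 101 that were lower (0.75%), of which 370 and 94 were called.

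Animal numbers differed between the groups, and this limits each count given here. The titles number the animals in a lower and a higher series. All 6 AAV_1E14_2.5wk animals and 3 of the 8 AAV_3E13 animals belonged to the higher series, and the other 5 to the lower one. What a series stands for is not stated in the sources used here. With the series as a term 49 genes were called (0.364%), 45 higher (0.334%) and 4 lower (0.0297%), Pkp2 among them (adjusted p = 0.0416). Within the higher series, 6 against 3 animals, edgeR called 0 genes (2375 at an unadjusted p below 0.05). The sizes changed less than the calls. Over the 1407 genes called higher the median log2 fold change was 0.52 with all animals and 0.48 within the series. Over the 686 genes called lower and tested there it was -0.51 and -0.49. These genes had been chosen on the fit with all animals, which shares its libraries with the fit within the series. Like medians were thus largely set in advance and say little about the series. Within AAV_3E13, animals of the lower series differed from those of the higher one at 0 genes by edgeR (273 at an unadjusted p below 0.05). Neither count of 0 shows that the series were alike, as groups this small miss most changes of the sizes seen. On simulated data with 6 against 3 animals, 2.04% of 1.5-fold and 22% of 2-fold rises were recovered. For falls to 0.667 and 0.5 of the level it was 0% and 20.5%. The count also fell to 1137 without AAV_1E14_2.5wk_LV_5814 and to 1393 without AAV_1E14_2.5wk_LV_5755. List counts given below stand against 10.5% higher and 5.14% lower over all genes with all animals. List counts without 1 of these libraries stand against these lower totals, so their fall is not particular to a list.

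**Figure D1:**
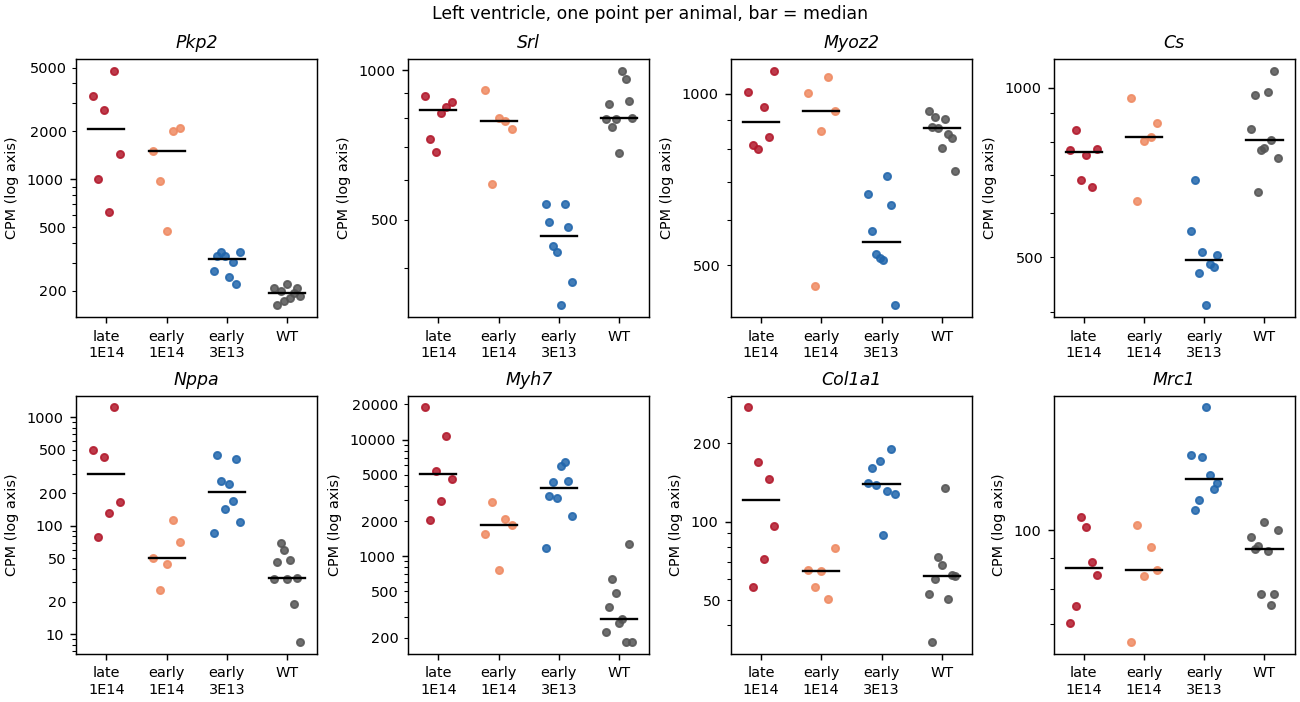
CPM on log axes of 8 genes in LV, 1 point per animal with the median as a bar, for late 1E14 (AAV_1E14_2.5wk), early 1E14 (AAV_1E14), early 3E13 (AAV_3E13) and WT animals. Srl libraries of the late group sit at 686 to 886 CPM, all above the 336 to 538 CPM of early 3E13, while the Nppa, Myh7 and Col1a1 points of these groups overlap.

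Desmosomal genes other than Pkp2 were mostly higher in AAV_1E14_2.5wk LV. Of 8 partners 5 rose (3 without AAV_1E14_2.5wk_LV_5814) and 0 fell, with a median log2 fold change of 0.51. Over all genes tested the median was -0.017, and 10.5% were called higher. Dsp (chr13:38335230-38382553) encodes desmoplakin, the plakin that links the junction to desmin. Its range was 1909.7 to 3545 CPM (median 2528) in AAV_1E14_2.5wk and 1193 to 2397 CPM (median 1661) in AAV_3E13, so the groups overlapped, and the log2 fold change was 0.70 (SE 0.16, adjusted p = 0.0117). Perp, a tetraspan protein of desmosomes, stood at 93.6 to 176 CPM in AAV_1E14_2.5wk and 50.3 to 87.5 CPM in AAV_3E13 without overlap (log2 fold change 0.86, SE 0.15, adjusted p = 0.00332).

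The other members of this list had smaller log2 fold changes. Des, the desmin filament itself, rose by 0.67 on the log2 scale (SE 0.17, adjusted p = 0.0159), with medians of 1211 CPM in AAV_1E14_2.5wk and 891 CPM in AAV_3E13. Both desmosomal cadherins on the list were called as well, Dsg2 at 0.57 (adjusted p = 0.0178) and Dsc2 at 0.45 (adjusted p = 0.0365). The adjusted p of Dsg2 was 0.0543 without AAV_1E14_2.5wk_LV_5814, and that of Dsc2 passed 0.05 without any 1 of 9 libraries. Jup (plakoglobin), Pkp4 and Tmem43 did not pass, with log2 fold changes of 0.13, 0.10 and -0.02. Dsc2, Jup, Pkp4 and Tmem43 lie outside the rule for named genes and are given to account for the whole list.

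At the rest of the intercalated disc 9 of 18 genes rose and 1 fell, against 10.5% and 5.14% of all genes tested. Without AAV_1E14_2.5wk_LV_5814 2 rose and without AAV_1E14_2.5wk_LV_5755 3, and 0 fell in either case. Gja1, which encodes connexin 43 of the ventricular gap junction, stood at 698, 699.8, 753, 833, 835 and 836 CPM in AAV_1E14_2.5wk and at 371 to 642 CPM (median 535) in AAV_3E13. The groups did not overlap, and the late median was close to the 827 CPM of WT. Its log2 fold change was 0.61 (SE 0.12, adjusted p = 0.00496). Cdh2, the N-cadherin of the adherens junction, had medians of 807 CPM in AAV_1E14_2.5wk and 489.8 CPM in AAV_3E13 (0.63, SE 0.15, adjusted p = 0.0129). Ctnnd1 (p120-catenin), a binding partner of cadherins, was the 1 member that fell, by 0.22 on the log2 scale (adjusted p = 0.0462), and this call was lost without any 1 of 9 libraries. Xirp1, an actin-binding protein of the disc, reached 478 CPM in AAV_1E14_2.5wk_LV_5755 and 172 to 275 CPM in the other late libraries, against 162 to 243 CPM in AAV_3E13. Its log2 fold change was 0.61 (adjusted p = 0.0298) with that library and 0.36 (adjusted p = 0.081) without it, and the call was also lost without any 1 of 6 other libraries, at 0.59 to 0.60.

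Genes of the contractile apparatus were mostly higher, with the highest called share of the 28 lists plotted. Of 24 sarcomere genes 20 rose and 0 fell (median log2 fold change 0.59). Myoz2 encodes a Z-disc protein that binds calcineurin. It stood at 799.6 to 1097 CPM (median 893) in AAV_1E14_2.5wk and 425 to 717 CPM (median 549) in AAV_3E13, and at a median of 869 CPM in WT. Mylk3, the cardiac kinase of myosin light chain, had 357 to 483 CPM in AAV_1E14_2.5wk and 244 to 332 CPM in AAV_3E13 (log2 fold change 0.58, SE 0.09, adjusted p = 0.00171). These libraries did not overlap for either gene. Ldb3 (the Z-disc protein cypher) rose by 0.60 and Tpm1 (α-tropomyosin) by 0.90 on the log2 scale, with adjusted p of 0.00501 and 0.00537.

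Calcium handling genes moved the same way, with 11 of 17 higher and 1 lower. Srl (chr16:4294124-4359680) encodes sarcalumenin, a calcium-binding protein inside the sarcoplasmic reticulum. Its libraries had 886, 727, 686, 821, 843 and 865 CPM in AAV_1E14_2.5wk, against 538, 494, 442, 430.4, 336, 537, 484 and 375 CPM in AAV_3E13. The groups did not overlap, and the difference was 0.84 on the log2 scale (SE 0.11, adjusted p = 0.000911). Atp2a2, the SERCA2 pump that refills the calcium store, ranged over 8553 to 13488 CPM in AAV_1E14_2.5wk and 5804 to 8333 CPM in AAV_3E13 without overlap (0.69, SE 0.14, adjusted p = 0.00516). Both late and low-dose medians, 10339 and 6507 CPM, lay below the 15228 CPM of WT.

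Other parts of the calcium cycle followed. Slc8a1, the sodium-calcium exchanger, had 286 to 489 CPM in AAV_1E14_2.5wk and 129.8 to 266 CPM in AAV_3E13 (log2 fold change 0.95, SE 0.16, adjusted p = 0.00243). S100a1, a calcium sensor of the reticulum, rose by 0.61 (adjusted p = 0.00469), Pln (phospholamban), the inhibitor of SERCA2, by 0.78 (adjusted p = 0.00794), and Ryr2, the release channel, by 0.45 (adjusted p = 0.00934). Itpr2, the inositol trisphosphate receptor that also releases calcium, fell, with 95.9 to 139.9 CPM in AAV_1E14_2.5wk and 121 to 194 CPM in AAV_3E13 (log2 fold change -0.45, SE 0.12, adjusted p = 0.0226).

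Among 16 sodium channel and exchanger genes 7 rose and 1 fell, and among 15 potassium channels 5 rose and 0 fell. Of all genes tested 10.5% rose and 5.14% fell. The 5 potassium channels became 2 without AAV_1E14_2.5wk_LV_5814 and 3 without AAV_1E14_2.5wk_LV_5755. Atp1b1, the β1 subunit of the sodium pump, had 242 to 408 CPM in AAV_1E14_2.5wk and 153 to 227 CPM in AAV_3E13 (log2 fold change 0.83, SE 0.12, adjusted p = 0.00154), without overlap. Fgf13, an intracellular partner of the cardiac sodium channel, rose by 0.87 (adjusted p = 0.00243). Scn7a, a sodium-sensing channel that is not the main channel of cardiomyocytes, fell, with medians of 102 CPM in AAV_1E14_2.5wk and 162 CPM in AAV_3E13 (log2 fold change -0.55, SE 0.12, adjusted p = 0.00748). Kcnk3, the TASK-1 leak channel, rose by 0.71 (adjusted p = 0.00243) and Kcnj12, an inward rectifier, by 0.74 (adjusted p = 0.00309).

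**Figure D2:**
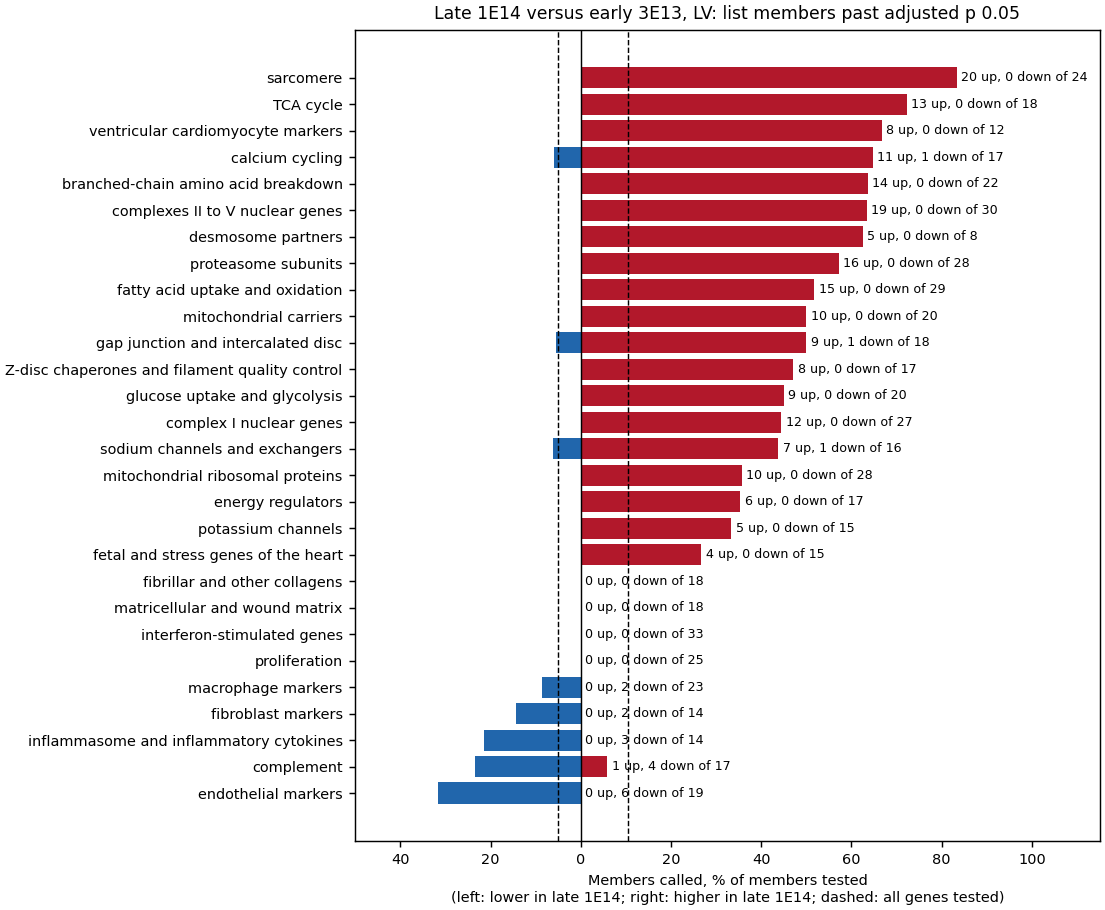
Share of tested members called higher (right) or lower (left) in late 1E14 than in early 3E13 LV for 28 gene lists, as a percentage of members tested, with the shares over all genes tested (10.5% higher, 5.14% lower) as dashed lines. Sarcomere leads with 20 of 24 members higher, and endothelial markers have the highest share lower with 6 of 19.

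Genes of energy metabolism rose in each of the pathways listed. Of 30 nuclear genes of respiratory complexes II to V, 19 rose and 0 fell (median log2 fold change 0.55). Of 27 nuclear genes of complex I, 12 rose and 0 fell (0.40). The complex I count was 6 without AAV_1E14_2.5wk_LV_5814. Sdhc (chr1:170954732-170978223), a membrane anchor of succinate dehydrogenase, stood at 134 to 185 CPM (median 154) in AAV_1E14_2.5wk and 85.6 to 119.6 CPM (median 101) in AAV_3E13. Its log2 fold change was 0.69 (SE 0.09, adjusted p = 0.000751), and the groups did not overlap. The same enzyme's Sdhd and Sdhb rose by 0.71 and 0.61. Cox7c, a subunit of cytochrome c oxidase, had 307 to 405 CPM in AAV_1E14_2.5wk and 154 to 256 CPM in AAV_3E13 (0.78, adjusted p = 0.00171). Atp5o, of the ATP synthase stalk, rose by 0.61 (adjusted p = 0.00193), as did Ndufb5 of complex I by 0.62 (adjusted p = 0.00193) and Ndufa8 by 0.46 (adjusted p = 0.00419).

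The fuel pathways feeding the chain were higher too. In the tricarboxylic acid cycle 13 of 18 genes rose (7 without AAV_1E14_2.5wk_LV_5814) and 0 fell, with Cs (citrate synthase) at a median of 768 CPM in AAV_1E14_2.5wk and 495 CPM in AAV_3E13. Its log2 fold change was 0.56 (SE 0.10, adjusted p = 0.00338). In fatty acid uptake and oxidation 15 of 29 rose (8 without that library) and 0 fell. Hadh, the third enzyme of β-oxidation, stood at 154 to 266 CPM in AAV_1E14_2.5wk and 83.1 to 174 CPM in AAV_3E13, and the overlap came from AAV_1E14_2.5wk_LV_5810, the lowest late library. Slc25a20, the acylcarnitine carrier, rose by 0.68 (adjusted p = 0.00218) and Echs1, the enoyl-CoA hydratase, by 0.37 (adjusted p = 0.00857).

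In branched-chain amino acid breakdown 14 of 22 genes rose (8 without AAV_1E14_2.5wk_LV_5814) and 0 fell. Hibadh, of the valine branch, had 138 to 177 CPM in AAV_1E14_2.5wk and 79.8 to 121 CPM in AAV_3E13 (log2 fold change 0.66, SE 0.10, adjusted p = 0.00161). Ppm1k, the phosphatase that activates the branched-chain dehydrogenase, rose by 0.77 (adjusted p = 0.00357), and Pccb, a propionyl-CoA carboxylase subunit, by 0.58 (adjusted p = 0.00316). In glycolysis 9 of 20 rose and 0 fell. Hk2 (hexokinase) rose by 0.56, Ldha (lactate dehydrogenase A) by 0.65 and Pgk1 (phosphoglycerate kinase) by 0.62, with adjusted p of 0.00264, 0.00193 and 0.00193.

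Regulators of these genes were among the members that rose, 6 of 17 on their list against 10.5% of all genes tested, and 0 fell. Esrrg (chr1:187340988-187947082), a nuclear receptor that drives mitochondrial genes in heart muscle, had 93.0 to 138 CPM (median 109.9) in AAV_1E14_2.5wk and 55.7 to 91.6 CPM (median 67.9) in AAV_3E13 without overlap (log2 fold change 0.67, SE 0.12, adjusted p = 0.00372). Its relative Esrrb rose by 0.58 (adjusted p = 0.00463), the muscle co-regulator Perm1 by 0.62 (adjusted p = 0.00829), and Tfb2m, a mitochondrial transcription factor, by 0.63 (adjusted p = 0.00884). Mitochondrial ribosomal proteins had 10 of 28 members higher and mitochondrial carriers 10 of 20, each with 0 lower. These lists cover nuclear genes, and the share of mitochondrially encoded counts did not pass its test.

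Proteasome subunits and muscle ubiquitin ligases were also among the genes that rose. Of 28 proteasome subunits 16 were higher and 0 lower (median log2 fold change 0.36), against 10.5% of all genes tested higher. Without AAV_1E14_2.5wk_LV_5814 or without AAV_1E14_2.5wk_LV_5755 5 were higher, while the total over all genes fell as well. Psmd1 and Psmd11, both of the regulatory particle, rose by 0.42 (adjusted p = 0.00515) and 0.39 (adjusted p = 0.0108). Fbxo32 and Trim63 encode atrogin-1 and MuRF1, the muscle ubiquitin ligases. Fbxo32 had 278 to 471 CPM in AAV_1E14_2.5wk and 153 to 279 CPM in AAV_3E13 (0.82, SE 0.14, adjusted p = 0.00278), and Trim63 had 94.9 to 169.7 CPM in AAV_1E14_2.5wk and 71.4 to 94.0 CPM in AAV_3E13 (0.62, SE 0.12, adjusted p = 0.00438).

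In the link between cell and matrix 3 of 21 integrin, laminin and dystrophin complex genes rose and 2 fell. The list median was 0.1. Over all genes tested 10.5% were higher and 5.14% lower, so these counts lay near the shares over all genes. Dag1, which encodes dystroglycan, the link between laminin and dystrophin, rose by 0.64 on the log2 scale (adjusted p = 0.00161). Lama4, a laminin of vessel basement membranes, and Itga6, a laminin receptor chain, fell by 0.32 and 0.35 on the log2 scale (adjusted p = 0.0182 and 0.0307). The call of Itga6 was lost without either of 2 libraries.

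Natriuretic peptides and the slow myosin did not pass the test between these groups. Nppa (chr4:148085091-148086583), the atrial natriuretic peptide that ventricles re-express under load, had 496, 78.6, 433, 131, 1234 and 166 CPM in AAV_1E14_2.5wk, against 86.3, 448, 258, 142, 242, 168, 415 and 108 CPM in AAV_3E13. The late libraries held both the lowest and the highest value, and the log2 fold change of 0.87 (SE 0.53) had an adjusted p of 0.269. Without AAV_1E14_2.5wk_LV_5810 it was 0.15 (adjusted p = 0.863). Nppb, the B-type peptide, was at 0.80 (SE 0.36, adjusted p = 0.138), and at 0.43 without AAV_1E14_2.5wk_LV_5810 or 0.50 without AAV_1E14_2.5wk_LV_5755. Myh7 (chr14:55208141-55232084), the slow myosin of the fetal ventricle, was read although it lies outside the naming rule and was chosen after its values were seen. It had 18886, 2036, 5412, 2966, 10729 and 4619.8 CPM in AAV_1E14_2.5wk and 1166 to 6376 CPM (median 3803) in AAV_3E13 (0.96, SE 0.45, adjusted p = 0.154), and its log2 fold change was 0.40 without AAV_1E14_2.5wk_LV_5755. WT medians were 33.2 CPM for Nppa and 290.4 CPM for Myh7, so both groups lay above WT in their medians.

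**Figure D3:**
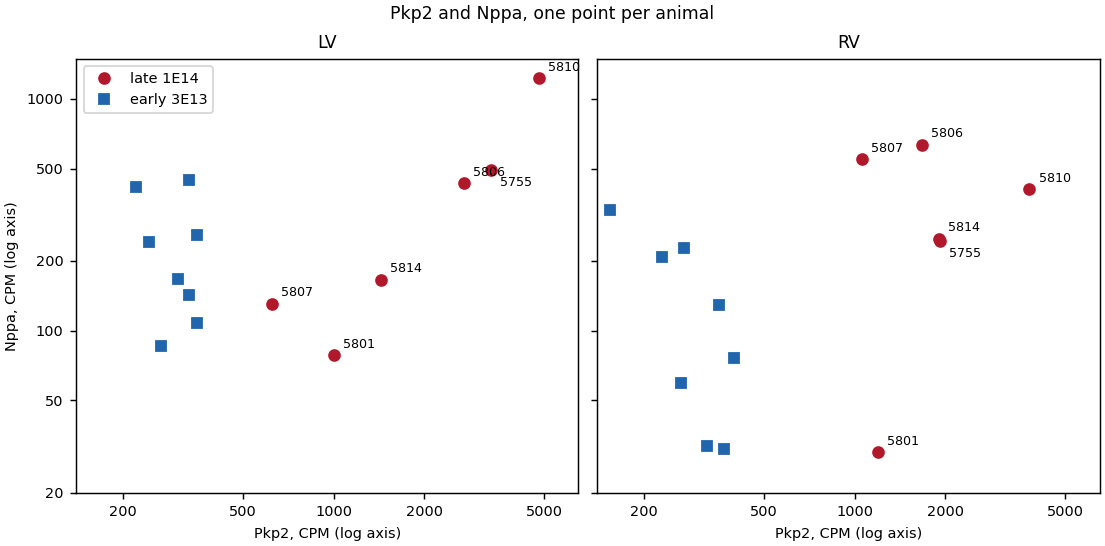
Pkp2 (x axis) against Nppa (y axis), both in CPM on log axes, 1 point per animal, in LV (left) and RV (right), for late 1E14 (circles, with animal numbers) and early 3E13 (squares). In both ventricles the late animals lie right of all early 3E13 animals for Pkp2, and for Nppa the groups overlap.

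In the fetal and stress list as a whole 4 of 15 members were higher (2 without AAV_1E14_2.5wk_LV_5755) and 0 lower. Of all genes tested 10.5% were higher and 5.14% lower. The list had a median log2 fold change of 0.68, and all 15 values were positive. Its called members included Fhl2 and Csrp3, which are LIM proteins of the sarcomere that healthy adult myocardium also expresses, with rises of 0.62 (adjusted p = 0.00206) and 0.59 (adjusted p = 0.00486). WT libraries had medians of 1139 and 389 CPM of these genes. Ankrd23, a titin-binding ankyrin repeat protein, had 686 CPM in AAV_1E14_2.5wk_LV_5755 and 546 CPM in AAV_1E14_2.5wk_LV_5810, while the other 4 late libraries had 143 to 236 CPM and AAV_3E13 had 123 to 237 CPM. Its log2 fold change was 1.04 (adjusted p = 0.0267) and was 0.68 (adjusted p = 0.091) without AAV_1E14_2.5wk_LV_5755, 1 of 3 libraries whose omission ended the call.

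Matrix genes showed no call in most lists. Of 18 collagens, 18 matricellular genes and 9 small proteoglycans 0 rose and 0 fell by edgeR. The list medians were -0.15, -0.22 and -0.28, with 14, 13 and 7 members negative. At an unadjusted p below 0.05 there were 0, 2 and 1 of these members, where at least 15.6% of all genes tested were. DESeq2 called 0, 2 and 1, all lower. On simulated data with 6 against 8 animals edgeR recovered 17% of falls to 0.667 and 62.5% of falls to 0.5 of the level. The lack of edgeR calls thus does not show that the groups were alike in these lists. Col1a1, the main fibrillar collagen chain, had 274, 56.1, 169, 72.0, 145 and 95.9 CPM in AAV_1E14_2.5wk and 89.0 to 189 CPM (median 139) in AAV_3E13 (log2 fold change -0.07, SE 0.28, adjusted p = 0.9), and the value was -0.43 (adjusted p = 0.251) without AAV_1E14_2.5wk_LV_5755. The late libraries lay on both sides of the low-dose range, and the WT median was 61.8 CPM. Col3a1 and Timp1 had log2 fold changes of -0.49 (adjusted p = 0.158) and -0.53 (adjusted p = 0.459), and Timp1 was at -1.11 (adjusted p = 0.103) without AAV_1E14_2.5wk_LV_5755. Mmp9, a gelatinase, was 1 of 2 protease-list members that fell (-1.30, SE 0.41, adjusted p = 0.0435), with medians of 2.22 CPM in AAV_1E14_2.5wk and 7.24 CPM in AAV_3E13, and this call was lost without any 1 of 9 libraries.

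Most ventricular cardiomyocyte markers were higher, some endothelial markers were lower, and most markers of other cells were not called. Over all genes tested 10.5% were higher and 5.14% lower. Calls in the lists of other cells were too few to be told from these shares. In bulk tissue fewer cells of a type and less RNA per cell cannot be told apart. The summed level of 12 ventricular cardiomyocyte markers was 44719 to 69793 CPM in AAV_1E14_2.5wk and 34149.6 to 48241 CPM in AAV_3E13, and 8 of 12 members rose. Endothelial markers summed to 2298 to 3592 CPM in AAV_1E14_2.5wk and 3071 to 4439 CPM in AAV_3E13, with 6 of 19 lower (1 without AAV_1E14_2.5wk_LV_5814, 2 without AAV_1E14_2.5wk_LV_5755). Fibroblast markers summed to 2259 to 4011 CPM in AAV_1E14_2.5wk and 2819.5 to 4778 CPM in AAV_3E13, with 2 of 14 lower (1 and 3 without the same libraries). The 24 macrophage markers summed to 360.3 to 505 CPM in AAV_1E14_2.5wk and 438 to 747 CPM in AAV_3E13, with 2 of the 23 tested lower, against 5.14% of all genes. Smooth muscle and pericyte markers summed to 3709 to 4181 CPM in AAV_1E14_2.5wk and 2984 to 4231 CPM in AAV_3E13, with 1 of 13 higher and 0 lower. Of 7 adipocyte markers tested 1 was higher and 0 lower, and of 8 Schwann and nerve markers 1 was higher and 2 lower. No T and NK, B and plasma, neutrophil and mast or blood cell marker was called by edgeR or DESeq2. Only 4 of 23, 7 of 15, 4 of 13 and 5 of 9 of them were tested, as the others did not pass the count filter. Of those tested 0, 4, 1 and 1 had an unadjusted p below 0.05, as had at least 15.6% of all genes tested. Msln, Th and Foxp3, markers of mesothelium, sympathetic nerve and regulatory T cells, were at 0 in all 14 libraries. Other markers were present, so this does not show that such cells were absent. Epicardial and mesothelial markers summed to 19.5 to 46.9 CPM in AAV_1E14_2.5wk and 25.1 to 46.2 CPM in AAV_3E13. Schwann and nerve markers summed to 226 to 336 and 269 to 351 CPM in the same order. T and NK cell markers summed to 7.35 to 32.1 and 10.5 to 34.3 CPM. These sums overlapped between groups, and their part in the changes of single genes was not tested.

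Among the single markers that fell, the endothelial receptor genes Tek, Flt1 and Eng were lower by 0.45, 0.46 and 0.44 on the log2 scale (adjusted p = 0.0211, 0.0258 and 0.0273). Tek encodes the angiopoietin receptor, and its libraries had 68.0 to 122 CPM in AAV_1E14_2.5wk and 109 to 146 CPM in AAV_3E13. Of the fibroblast markers Vim (vimentin) had a log2 fold change of -0.35 (adjusted p = 0.0221), and of the activated fibroblast markers Sfrp1, a secreted Wnt antagonist, -0.71 (adjusted p = 0.031). The calls of Flt1 and Eng were each lost without either of 2 libraries, and that of Sfrp1 without any 1 of 5. Mrc1 and Lyve1 are receptors of resident cardiac macrophages. Mrc1 had 70.4 to 105 CPM in AAV_1E14_2.5wk and 108 to 159 CPM in AAV_3E13 without overlap (-0.51, SE 0.11, adjusted p = 0.00754), and Lyve1 had -0.69 (SE 0.19, adjusted p = 0.0224).

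Calls among innate immune genes were nearly all lower. Of all genes tested 5.14% were lower and 10.5% higher. In the inflammasome and cytokine list 3 of 14 fell and 0 rose, and all 14 log2 fold changes were negative. So were 15 of 17 in the complement list. Casp4, the caspase that senses cytosolic lipopolysaccharide, had 7.63 to 13.3 CPM in AAV_1E14_2.5wk and 15.4 to 25.9 CPM in AAV_3E13 without overlap (log2 fold change -0.76, SE 0.15, adjusted p = 0.00521). Il1r1, the interleukin-1 receptor, had -0.62 (adjusted p = 0.00937) and the alarmin Il33 -0.89 (adjusted p = 0.0328), a call lost without any 1 of 6 libraries. In the complement list 4 of 17 fell (1 without AAV_1E14_2.5wk_LV_5814), with the protease C1s1 at -0.52 (adjusted p = 0.0209) and its inhibitor Serping1 at -0.56 (adjusted p = 0.0392), the call of Serping1 being lost without any 1 of 9 libraries. The exception was Cd59a (chr2:103926132-103947029), which encodes a membrane protein that shields cells from complement pores. It rose, with 54.0 to 67.6 CPM in AAV_1E14_2.5wk and 36.1 to 49.9 CPM in AAV_3E13 (0.56, SE 0.09, adjusted p = 0.00212). No call was made by edgeR or DESeq2 in 33 interferon-stimulated genes, 15 MHC class I genes, 16 chemokines or 25 proliferation genes. An unadjusted p below 0.05 was found for 1, 0, 4 and 4 of them. At least 15.6% of all genes tested had one, as each called gene did. Of the 16 chemokines 15 had negative log2 fold changes. Cenpf, a kinetochore gene of the proliferation list, had a log2 fold change of 0.45 (adjusted p = 0.433), and of 0.16 without AAV_1E14_2.5wk_LV_5801.

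The genes with the largest changes and no overlap between groups were of mixed function. Beside Pkp2, those that rose were Ak4 (1.10), Abat (1.01), Gpr137c (1.01), Apoo (0.99), Mrpl34 (0.99), Hrasls (0.99), Slc25a33 (0.99), Gpr27 (0.98) and Gstm7 (0.96), with log2 fold changes in parentheses. Ak4, a mitochondrial adenylate kinase, had 24.4 to 40.5 CPM in AAV_1E14_2.5wk and 11.2 to 20.4 CPM in AAV_3E13. Of these 9 genes 5 act in or at mitochondria by background knowledge, namely Ak4, Abat (GABA transaminase), Apoo (a subunit of the crista organising complex), Mrpl34 and Slc25a33 (a pyrimidine nucleotide carrier). Those that fell were Peg3 (-1.09), Ifi205 (-0.82), Dnm3 (-0.81), Rbbp8 (-0.74), Irak3 (-0.74), Bmp4 (-0.72), Ddx26b (-0.69), Cys1 (-0.68) and Cd200 (-0.66). Peg3, an imprinted zinc finger gene, had 6.97 to 38.8 CPM in AAV_1E14_2.5wk and 40.4 to 73.5 CPM in AAV_3E13. Casp4 also belonged to this group of falls. The call of Ifi205 was lost without either of 2 libraries and that of Cys1 without any 1 of 6. Irak3 dampens Toll-like receptor signalling, and Cd200 encodes a ligand that restrains myeloid cells.

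The RV libraries of the same animals showed far fewer differences. Of 13445 genes 3 were called by edgeR (0.0223%), 1 higher (0.00744%) and 2 lower (0.0149%), while 1824 had an unadjusted p below 0.05, and DESeq2 called 264. Pkp2 had 1060.3 to 3804 CPM in AAV_1E14_2.5wk RV and 154 to 399 CPM in AAV_3E13 RV (log2 fold change 2.69, adjusted p = 0.000144). Srl was at 0.20, Sdhc at 0.31 and Mrc1 at -0.29 in RV, none past the threshold. The difference between ventricles was then tested itself, over 28 libraries. The interaction was called at 0 of 14211 genes by edgeR (1221 at an unadjusted p below 0.05, lowest adjusted p = 0.217), and with the animal as a block at 0 (1663, lowest adjusted p = 0.118). By sex-linked transcripts AAV_1E14_2.5wk_RV_5814 looked mixed and its LV partner female. Without that RV library 2 genes were called in RV (1496 at an unadjusted p below 0.05), and without the animal the interaction was at 0 (898, lowest adjusted p = 0.569). No gene was thus shown to be particular to LV. Over the 88 named genes that were called in LV, Pkp2 and Dsc2 left out, the median size was 0.67 in LV and 0.25 in RV, but these genes had been chosen on their LV values.

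**Figure D4:**
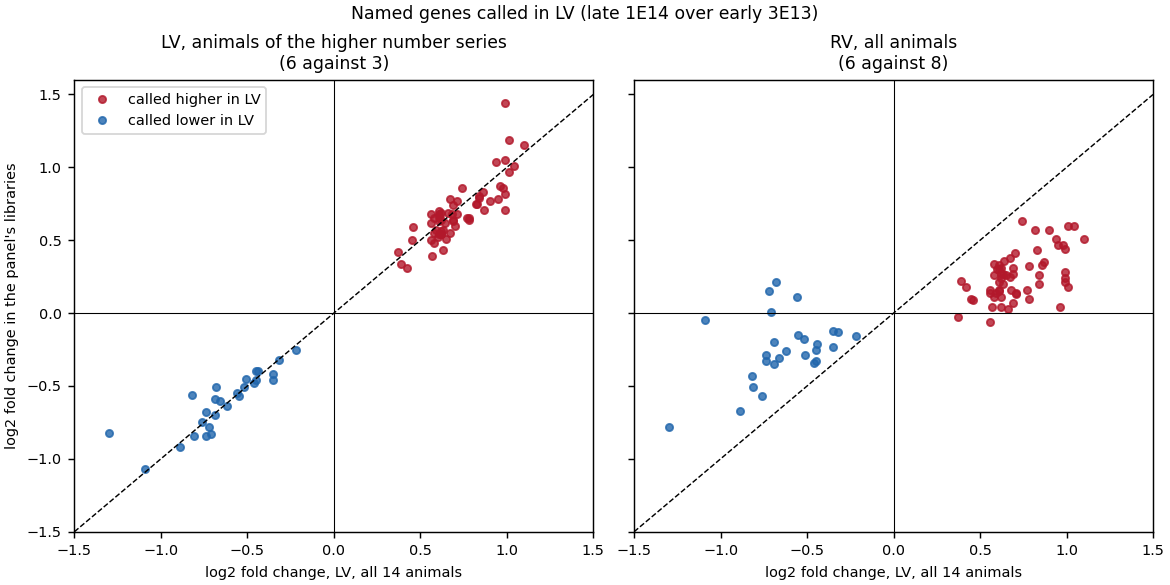
Log2 fold changes of late 1E14 over early 3E13 for the 88 named genes called in LV, with all 14 LV animals on the x axis and, on the y axis, LV animals of the higher number series (left) or RV (right), and the line of equality dashed. The left panel lies along the line (median size 0.64 against 0.67) and shares its libraries with the x axis, whereas the right panel has a median size of 0.25.

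The other groups of the series place these values. AAV_1E14 LV, which shared the high dose with one group and the early dosing with the other, differed from AAV_3E13 LV at 2575 of 13529 genes (19%), 1458 higher (10.8%) and 1117 lower (8.26%). AAV_1E14_2.5wk LV differed from AAV_1E14 LV at 0 of 13234 genes by edgeR (964 at an unadjusted p below 0.05), while DESeq2 called 57. AAV_1E14_2.5wk differed from WT at 198 of 13274 genes (1.49%), 114 higher (0.859%) and 84 lower (0.633%). In that comparison 11 of 18 matricellular genes (list median 1.33) and 10 of 17 activated fibroblast markers (1.06) were higher. Of 24 sarcomere genes 0 were called (0.02). A count of calls also depends on group size and spread. AAV_3E13 differed from WT at 5136 of 13116 (39.2%), 2614 higher (19.9%) and 2522 lower (19.2%). These comparisons share libraries with each other, so their values stand side by side and are not independent.

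Muscle and energy lists had like medians against AAV_3E13 in both high-dose groups. The sarcomere median was 0.59 for AAV_1E14_2.5wk and 0.53 for AAV_1E14, and that of complexes II to V was 0.55 and 0.68 in the same order. Matrix, stress and proliferation lists stood further apart. Collagens were at -0.15 for AAV_1E14_2.5wk (0 of 18 called) and -0.90 for AAV_1E14 (11 of 18 lower), matricellular genes at -0.22 (0 of 18) and -1.44 (14 of 18 lower), fetal and stress genes at 0.68 (4 of 15 higher) and -0.65 (2 of 14 higher, 5 lower), and proliferation genes at 0.12 (0 of 25) and -0.84 (1 of 22 higher, 8 lower). Of single genes, Col1a1 had -0.07 for AAV_1E14_2.5wk and -1.19 for AAV_1E14 (adjusted p = 0.000458), and Nppa 0.87 and -1.95 (adjusted p = 0.00728). The AAV_1E14_2.5wk values were -0.43 for Col1a1 without AAV_1E14_2.5wk_LV_5755 and 0.15 for Nppa without AAV_1E14_2.5wk_LV_5810. The Nppa median was 299.9 CPM in AAV_1E14_2.5wk, 50.9 CPM in AAV_1E14, 205 CPM in AAV_3E13 and 33.2 CPM in WT. Between the high-dose groups themselves the list medians were 0.63 for collagens, 1.22 for matricellular genes and 1.19 for fetal and stress genes, with 0 members called by edgeR.

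**Figure D5:**
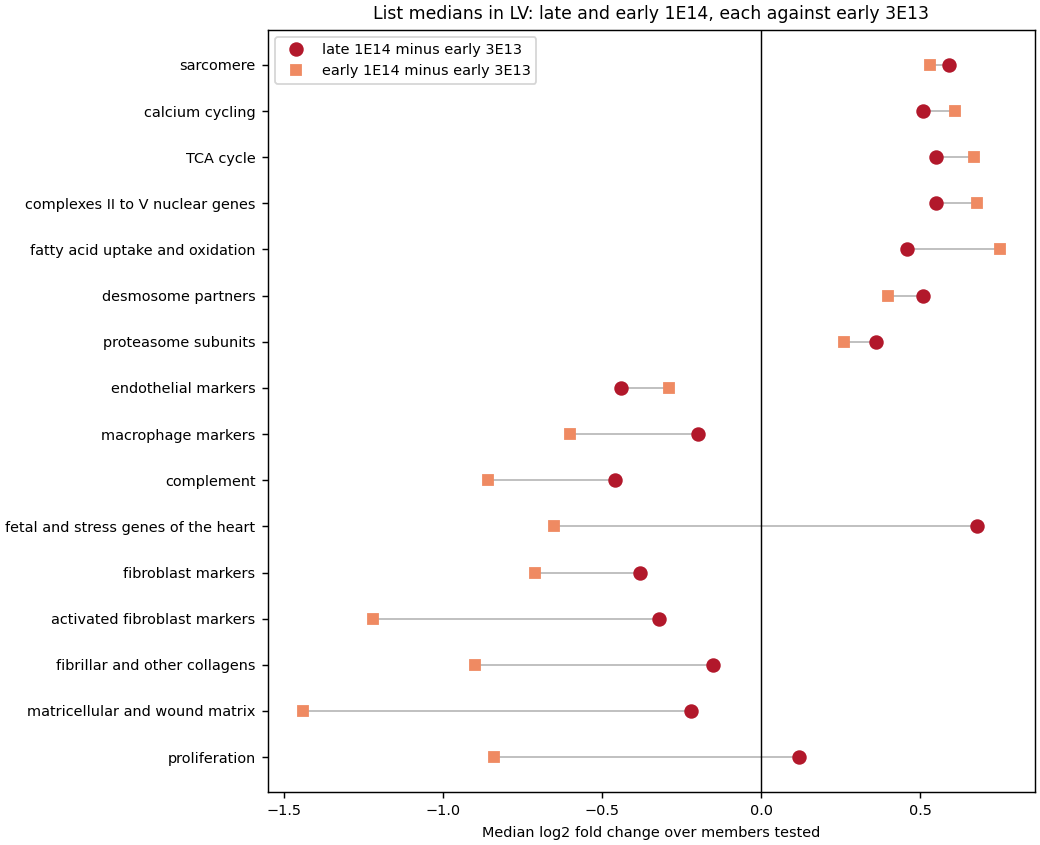
Median log2 fold change over tested members of 16 gene lists in LV, for late 1E14 (circles) and early 1E14 (squares), each against the same early 3E13 libraries. Sarcomere, energy and desmosome lists lie to the right of 0 for both, and the fetal and stress list lies at 0.68 for late 1E14 and -0.65 for early 1E14.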

How the data were processed

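RNA had been sequenced from LV and RV of 32 mice, and the 14 LV libraries of 2 groups carry the comparison. Groups came from sample titles. The labels name polyadenylated RNA and the protocol a ribosomal depletion kit, so the selection is uncertain. The authors trimmed reads, ran Salmon 1.8.0 on GRCm39 transcripts and summed to genes with tximport. The authors' estimated counts per gene were deposited without normalisation. The deposited TPM table holds TPM of the same runs, and the other deposited table holds effective lengths of transcripts in bases. Several gene symbols are older than the annotation release the methods name. Coordinates are GRCm39, matched by symbol.

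Counts were rounded, and 37 mitochondrially encoded genes and 1 nameless row (at most 0.00136% of a library) were removed. Genes were tested with edgeR 4.0.16 in R 4.3.3 (TMM, filterByExpr, quasi-likelihood F test) on the 2 groups compared, with Benjamini-Hochberg adjustment over all genes tested and a threshold of 0.05. CPM used TMM factors over all 64 libraries. Alternatives were DESeq2 1.42.0, limma 3.58.1 on log2(TPM + 1), an unequal-variance test, other filters, length corrections, sex and number-series terms, and leaving out each animal. The relative length covariate, DESeq2 on the side comparisons, the comparison within AAV_3E13, and counts without single doubted libraries in lists and RV were added after the data were seen. Ventricles of an animal were paired by label. The same-animal correlation of deviations had a median of 0.139 over 14 animals (-0.0284 to 0.206, over 0.1 in 8). Scripts were tested on simulated data.

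Members, gene lists and tests were chosen with earlier results of these data known. Named genes were Pkp2, 5 RT-qPCR targets of the study (Timp1, Col1a1, Col3a1 and both natriuretic peptide genes), up to 4 called members of a list by smallest p (else its most abundant member), called members against a list's direction, and up to 10 genes per direction with the largest change, no overlap and at least 5 CPM. Among falls, gene models without a symbol were skipped. Some genes that this rule names are not reported here. Counts of genes with near-identical copies (Ifi205, Gstm7, C1s1, Cox7c) are uncertain.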

Additional observations from a re-analysis of the deposited data

Results flagged for a closer look

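In 17 of 202 groups examined (8.42%), the highest or lowest library lay far from the others of its group, where chance gives about 1 in 20. In AAV_1E14_2.5wk LV, AAV_1E14_2.5wk_LV_5810 stood apart for Nppa (1234 CPM, the highest), Perp (176 CPM, the highest) and Hadh (154 CPM, the lowest). AAV_1E14_2.5wk_LV_5755 stood apart for Xirp1 (478 CPM) and Dnm3 (27.5 CPM, the lowest), and it had the most Myl4, Myl7 and Sln of the 14 libraries. The others were AAV_1E14_2.5wk_LV_5814 for Ryr2 (6027 CPM) and AAV_1E14_2.5wk_LV_5801 for Slc25a33 (11.3 CPM), each the highest. In AAV_3E13 LV, AAV_3E13_LV_2033 was the highest for Mb (4207 CPM), Mylk3 (332 CPM) and Xirp1 (243 CPM), and the lowest for Ldha (147 CPM). Mb encodes myoglobin, and was called higher in AAV_1E14_2.5wk by 0.94 on the log2 scale (SE 0.20, adjusted p = 0.00813, edgeR). AAV_3E13_LV_2048 was the highest for Ifi205 (139 CPM), Casp4 (25.9 CPM) and Irak3 (56.1 CPM). AAV_3E13_LV_2045 was the highest for Cd200 (95.5 CPM), AAV_3E13_LV_5759 the highest for Dsp (2397 CPM), and AAV_3E13_LV_5809 the lowest for Gpr137c (2.55 CPM). No cause was tested.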

How the results depend on the processing

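The LV count of 2099 called genes became 1002 with limma on log2(TPM + 1), 527 with the unequal-variance test, 49 with the number-series term and 0 within the higher number series (6 against 3 animals). Leaving out 1 animal gave 1137 to 2328, with 1137 without AAV_1E14_2.5wk_LV_5814 and 1393 without AAV_1E14_2.5wk_LV_5755, and 983 genes were called in all 14 of these and with all animals. DESeq2, the other filters, length corrections, sex, mitochondrial and all-LV settings gave 1410 to 2771. DESeq2 also gave 264 against 3 in RV (2 without AAV_1E14_2.5wk_RV_5814), 57 against 0 for late against early high dose, and 627 against 198 for late high dose against WT. The interaction stayed at 0 with the animal as a replicate block, and without the animal with the doubted RV library. Of the 90 named genes called, 11 kept their call with the number-series term, 0 within the series, 46 by the unequal-variance test, 69 by limma and 81 to 90 under the other settings, and 14 lost it without at least 1 library. For Pkp2 the adjusted p was 0.0511 by the unequal-variance test and 0.0884 within the series. Uncalled values changed sign for Col1a1 (0.00 and 0.06 leaving out 1 animal) and Tmem43 (0.04 with length offsets, 0.07 with the number-series term, 0.07 within the series, 0.00 with relative length, 0.00 and 0.02 leaving out 1 animal). Causes were not tested. Depth limits calls for genes of few CPM, such as Mmp9.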

Other observations

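Among the AAV_1E14_2.5wk LV libraries, the 3 with the most Pkp2 were also the 3 with the most Nppa. AAV_1E14_2.5wk_LV_5810 had 4798 CPM of Pkp2 and 1234 CPM of Nppa, and AAV_1E14_2.5wk_LV_5807 had 626 and 131 CPM. Those with the most Pkp2 included AAV_1E14_2.5wk_LV_5810 and AAV_1E14_2.5wk_LV_5755, the libraries with the highest summed atrial markers. In AAV_1E14_2.5wk_LV_5810 Nppa itself made up 1234 of the 2204 CPM. Without Nppa its sum was 971 CPM, near the 904 CPM of AAV_1E14_2.5wk_LV_5814. Nppa belongs to those markers, and the part of atrial transcripts in the relation was not tested. Over the 6 late LV libraries Pearson's r on log2 CPM was 0.92 (exact permutation p = 0.0153) and Spearman's rho 0.94 (exact permutation p = 0.0167). Without AAV_1E14_2.5wk_LV_5807 and AAV_1E14_2.5wk_LV_5810, the libraries farthest from the median Pkp2 level, r was 0.99 over only 4 libraries, too few to show how stable it is. AAV_1E14_2.5wk_LV_5755 was still among the libraries of that value. After Benjamini-Hochberg adjustment over the 24 relations computed, which covered 6 genes in 4 sets of libraries, the p-values of r and rho were 0.184 and 0.134, so the relation did not pass. For Myh7 in the 6 late LV libraries r was 0.84 and rho 0.89 (exact permutation p = 0.0417 and 0.0333, adjusted p = 0.207 and 0.177). Without the same 2 libraries r was 0.90, again over only 4.

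The RV libraries of the same 6 animals had an r of 0.30 between Pkp2 and Nppa (exact permutation p = 0.501, adjusted p = 0.729) and a rho of -0.14. In the 8 AAV_3E13 LV libraries r was -0.25 (exact permutation p = 0.547, adjusted p = 0.729) and rho -0.24. The lowest raw p of the 24 belonged to Timp1 in AAV_3E13 LV, with an r of -0.86 (exact permutation p = 0.0027, adjusted p = 0.0648) and a rho of -0.90, and an r of -0.60 without AAV_3E13_LV_5768 and AAV_3E13_LV_2048. None of the 24 relations passed after adjustment. These relations were chosen after the values had been seen and are given as descriptions.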
